A study of Mus musculus with 10 samples.

Results

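The 10 core genes of the circadian clock described here are Arntl, Clock, Per2, Per3, Cry1, Cry2, Nr1d1, Nr1d2, Dbp and Tef. They were taken by gene name from the deposited expression table, where each has 1 entry among 31285 genes. RNA sequencing was carried out on inguinal white adipose tissue, a subcutaneous fat depot, in 5 samples of Ad-GHRKO mice and 5 samples of Flox mice, all 20 months old. The genotype label of the Ad-GHRKO samples reads GHR Knockdown, and the other samples are labelled Flox. All mice were kept in ventilated cages with 12 h of light and 12 h of dark and had free access to regular chow and water. The sources used here give no sex, strain background, promoter of any Cre or clock time of tissue collection. The labels do not say that each sample came from a different mouse, so the spread behind each p-value is that between samples and may be technical. Levels are FPKM, fragments per kilobase of gene scaled to the total of assigned fragments, and libraries are called by genotype and number. Gene positions are those of the deposited table, which match build GRCm38.

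The clock is a feedback loop that runs in nearly every cell. ARNTL (also called BMAL1) pairs with CLOCK and binds E-box motifs to switch on the Per and Cry genes, whose proteins later block that pair. The same pair drives Nr1d1 and Nr1d2, which encode the REV-ERB receptors that repress Arntl, and Dbp and Tef, which encode D-box-binding activators. As a consequence Arntl, together with Npas2 and Nfil3, peaks at nearly the opposite time of day from Dbp, Tef, Per3, Nr1d1 and Nr1d2 in mouse peripheral tissues, including adipose tissue. Per2, Cry1 and Cry2 peak at other times or cycle less. Arntl, Clock, Npas2 and Nfil3 are called early genes here, and Dbp, Tef, Per3, Nr1d1 and Nr1d2 late genes.

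Promoters are shown for Arntl, for 3 of the late genes (Dbp, Tef and Per3) and for Cry1. Across libraries these 3 late genes had a negative correlation with Arntl, and Cry1 a positive one. The late genes Nr1d1 and Nr1d2 also had a negative correlation with Arntl, and their windows are not printed. Of these late genes only Dbp and Tef passed the test given below after adjustment, and Cry1 was not tested against Arntl. RefSeq windows of 300 bases, 250 before and 50 after the annotated start, were available for 9 of the 10 genes (all but Per2), on build GRCm38.p6. Each is written 5′ to 3′ on the gene's strand, and capitals mark every match to the 3 motifs searched on both strands: the E-box CACGTG, the D-box TTANGTAA and the AGGTCA core bound by REV-ERB and ROR receptors. No 2 matches overlapped in these windows. The windows are Arntl at chr7:113207261-113207560 (plus strand), Dbp at chr7:45704997-45705296 (plus), Tef at chr15:81811164-81811463 (plus), Per3 at chr4:151044616-151044915 (minus) and Cry1 at chr10:85185005-85185304 (minus).
Arntl: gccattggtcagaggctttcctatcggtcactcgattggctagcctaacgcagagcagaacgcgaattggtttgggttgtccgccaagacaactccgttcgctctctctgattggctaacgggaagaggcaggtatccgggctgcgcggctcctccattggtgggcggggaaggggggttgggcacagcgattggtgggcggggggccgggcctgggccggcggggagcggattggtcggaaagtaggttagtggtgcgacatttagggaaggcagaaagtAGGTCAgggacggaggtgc
Dbp: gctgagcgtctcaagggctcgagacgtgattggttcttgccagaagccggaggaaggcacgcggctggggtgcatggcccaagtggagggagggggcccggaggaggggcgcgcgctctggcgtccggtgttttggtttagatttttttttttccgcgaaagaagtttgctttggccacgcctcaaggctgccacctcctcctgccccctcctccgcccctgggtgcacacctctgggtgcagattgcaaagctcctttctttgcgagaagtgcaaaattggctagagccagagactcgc
Tef: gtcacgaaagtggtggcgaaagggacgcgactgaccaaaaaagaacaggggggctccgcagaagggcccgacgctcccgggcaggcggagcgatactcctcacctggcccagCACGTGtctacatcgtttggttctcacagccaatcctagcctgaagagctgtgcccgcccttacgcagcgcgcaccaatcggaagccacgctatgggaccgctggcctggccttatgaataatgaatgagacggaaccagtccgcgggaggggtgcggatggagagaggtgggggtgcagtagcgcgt
Per3: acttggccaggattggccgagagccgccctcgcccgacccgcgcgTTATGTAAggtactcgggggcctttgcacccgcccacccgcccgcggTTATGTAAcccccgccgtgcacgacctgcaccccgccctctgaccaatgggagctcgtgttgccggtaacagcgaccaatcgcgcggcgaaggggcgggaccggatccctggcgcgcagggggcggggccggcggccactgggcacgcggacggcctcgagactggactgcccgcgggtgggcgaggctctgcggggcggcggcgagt
Cry1: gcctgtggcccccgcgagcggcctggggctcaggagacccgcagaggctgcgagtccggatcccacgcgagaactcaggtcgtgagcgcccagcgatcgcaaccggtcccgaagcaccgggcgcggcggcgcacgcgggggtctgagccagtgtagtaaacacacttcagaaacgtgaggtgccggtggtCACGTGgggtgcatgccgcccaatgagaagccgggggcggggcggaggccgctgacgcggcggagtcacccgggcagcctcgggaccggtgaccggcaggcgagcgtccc
Counting from the annotated start, Per3 carried TTATGTAA at positions -205 and -158, Tef carried CACGTG at -138, and Cry1 carried CACGTG at -60. A second annotated Tef start, with its window at chr15:81802423-81802722, held CACGTG at -127. Arntl carried AGGTCA at position 32 of the transcribed side, and the window of a second annotated Arntl start, chr7:113207215-113207514, held none of the 3 motifs. Over the 13 windows of the 9 genes, 2 genes held an E-box, 1 held a D-box and 3 held AGGTCA (Arntl, Nr1d2 and Clock) in at least 1 window. Of all 32851 RefSeq windows of this length, 7.15% held the E-box, 2.32% the D-box and 16.3% AGGTCA. These shares are per window and the counts above per gene, so genes with several windows had more chances of a match. The Dbp, Nr1d1 and Cry2 windows held none of the 3 motifs. A match describes the letters and does not show binding.

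The recovered depth was 14.6 to 19.3 M reads per library (M, mega), and Ghr, the targeted gene, matched the genotype labels. Ghr, which encodes the growth hormone receptor, averaged 16.6 ± 2.71 FPKM in Ad-GHRKO and 93.5 ± 21.9 FPKM in Flox (SD, n = 5 each; log2 change -2.41, adjusted p = 6.54e-05, limma), with no overlap. The adipocyte markers were high in every library, at a summed 3904 to 11118 FPKM in Ad-GHRKO and 7322 to 11509 FPKM in Flox for 10 genes. Transcripts of 16 skeletal muscle genes made up 15.4% of reads in Ad-GHRKO 1, 6.04% in Flox 3 and 8.63% in Flox 5, and at most 0.195% in any other library. These 3 libraries stand apart, and log2 changes of the 10 core genes are also given without them. The tissue is bulk, so fewer cells expressing a gene and less RNA per cell cannot be told apart. Summed levels of the other marker lists overlapped between the genotypes. Of their genes that were tested none passed, but few of some lists reached the filter on low values, with 1 of 7 epithelial, 2 of 6 T cell, 4 of 7 B cell and 4 of 16 muscle genes tested. In FPKM they were 511 to 1808 against 325 to 1100 for macrophages, 355 to 888 against 376 to 1060 for fibroblasts and their progenitors, 86.0 to 201 against 79.5 to 171 for endothelium, 2.65 to 14.7 against 6.61 to 42.9 for B cells, 2.92 to 6.13 against 2.29 to 14.7 for T cells and 0.460 to 7.02 against 0.879 to 6.14 for epithelium, Ad-GHRKO against Flox. No listed gene was at 0 in all libraries, but 5 of 16 muscle genes and 4 of 7 epithelial genes were at 0 in at least 1. Their part in the clock values was not tested.

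None of the 10 clock genes passed the test between Ad-GHRKO and Flox at an adjusted p of 0.05, against 280 of 12785 genes tested across the table (2.19%). Of all genes tested, 0.774% were called higher and 1.42% lower in Ad-GHRKO. All 10 passed the filter on low values. The test was limma on log2(FPKM + 1), two-sided, with Benjamini-Hochberg adjustment, and all log2 changes below are Ad-GHRKO minus Flox on that scale. At an unadjusted p below 0.05 there were 2 of 10, Per2 and Cry2, both higher in Ad-GHRKO, against 2091 of 12785 genes. A voom fit on the recovered reads gave the same counts, 0 called and 2 at an unadjusted p below 0.05. The 2 genotypes overlapped in level for all 10 genes, while 4.97% of all genes tested did not overlap. The median log2 change was 0.12 over the 10 genes and 0.036 over all genes tested.

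The activators Arntl and Clock had close means, 3.69 ± 0.528 and 4.91 ± 0.712 FPKM in Ad-GHRKO against 3.25 ± 1.17 and 4.66 ± 0.766 FPKM in Flox (SD, n = 5 each). Arntl (ENSMUSG00000055116, chromosome 7, 113207465 to 113314126, plus strand) was at 3.85, 4.17, 2.84, 3.55 and 4.03 FPKM in Ad-GHRKO 1 to 5, against 4.94, 3.22, 3.54, 2.80 and 1.74 FPKM in Flox 1 to 5. Both the highest and the lowest library were Flox, and the 5 Ad-GHRKO libraries lay between them. The log2 change was 0.18 (SE 0.19, 95% interval -0.23 to 0.59, adjusted p = 0.701, limma), and 0.015 without the 3 muscle-rich libraries (adjusted p = 0.970, limma). Clock (ENSMUSG00000029238, chromosome 5, 76209868 to 76304792, minus strand), which encodes the partner of ARNTL, was at 3.87, 5.77, 4.67, 4.95 and 5.30 FPKM in Ad-GHRKO, against 4.70, 5.21, 5.56, 4.17 and 3.66 FPKM in Flox. Its groups nearly coincided, with a log2 change of 0.065 (95% interval -0.23 to 0.36, adjusted p = 0.861, limma), or 0.12 without those 3 libraries.

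The repressors Per2, Cry1 and Cry2 had higher means in Ad-GHRKO, with overlap in every case. Per2 (ENSMUSG00000055866, chromosome 1, 91415982 to 91459324, minus strand) is both a clock gene and a gene induced by signals such as glucocorticoids. It was at 7.96, 9.11, 12.3, 8.12 and 11.8 FPKM in Ad-GHRKO, against 9.75, 5.28, 6.61, 4.55 and 8.06 FPKM in Flox. Flox 1 lay above 3 of the Ad-GHRKO libraries and Flox 5 above 1, and the other 3 Flox libraries lay below all of Ad-GHRKO. The means were 9.86 ± 2.06 FPKM in Ad-GHRKO and 6.85 ± 2.11 FPKM in Flox (SD, n = 5 each), with a log2 change of 0.49 (SE 0.20, 95% interval 0.055 to 0.92) and an adjusted p of 0.247 by limma. Without the 3 muscle-rich libraries it was 0.63 (adjusted p = 0.152, limma). Of 14 immediate-early genes, which respond quickly to stimulation, 12 were tested, and 6 were higher in Ad-GHRKO and 0 lower by limma, against 0.774% of all genes called higher. Without the 3 muscle-rich libraries 3 of the 12 were called, against 777 of 12785 genes tested. With the muscle score as a covariate 10 were, against 798 of 12785. Their summed level was 289 to 864 FPKM in Ad-GHRKO and 129 to 204 FPKM in Flox, without overlap. Their part in the Per2 values was not tested.

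Cry2 (ENSMUSG00000068742, chromosome 2, 92403646 to 92434043, minus strand) encodes a cryptochrome that represses the activator pair. It was at 13.9, 16.5, 17.3, 15.6 and 13.6 FPKM in Ad-GHRKO, against 10.7, 12.3, 13.3, 13.7 and 12.6 FPKM in Flox. The groups touched at a single place, where Ad-GHRKO 5 lay just below Flox 4. The means were 15.4 ± 1.62 FPKM in Ad-GHRKO and 12.5 ± 1.15 FPKM in Flox (SD, n = 5 each), with a log2 change of 0.27 (SE 0.12, 95% interval 0.021 to 0.53) and an adjusted p of 0.265 by limma. With array weights, which limma estimates from the variability of each library in these data, it passed (log2 change 0.33, adjusted p = 0.0332, limma). In that fit 1695 of 12785 genes tested were called. This adjusted p was the lowest of a range of 0.0332 to 0.498 over all alternatives. The log2 change was 0.34 without the 3 muscle-rich libraries (adjusted p = 0.133, limma). Cry2 shares 295 exon bases with D930015M05Rik on the opposite strand, which averaged 1.84 FPKM in Ad-GHRKO and 1.08 FPKM in Flox.

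Cry1 (ENSMUSG00000020038, chromosome 10, 85131700 to 85185064, minus strand), the other cryptochrome, was at 6.53, 5.49, 3.90, 3.62 and 4.30 FPKM in Ad-GHRKO, against 5.47, 3.04, 3.71, 2.27 and 3.16 FPKM in Flox. Ad-GHRKO 1 was highest and Flox 4 lowest, and Flox 1 stood with the upper Ad-GHRKO libraries. Cry1 had a log2 change of 0.36 (95% interval -0.069 to 0.79, adjusted p = 0.407, limma), or 0.26 without the 3 muscle-rich libraries. Per3 (ENSMUSG00000028957, chromosome 4, 151003652 to 151044665, minus strand), a period gene that follows the late group in phase, was at 2.92, 5.26, 6.94, 4.06 and 5.27 FPKM in Ad-GHRKO, against 3.37, 2.83, 4.77, 5.38 and 6.996 FPKM in Flox. Its 2 groups spanned almost the same range, with a log2 change of 0.064 (95% interval -0.45 to 0.57, adjusted p = 0.927, limma), and 0.41 without the 3 muscle-rich libraries (adjusted p = 0.259, limma).

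**Figure D1:**
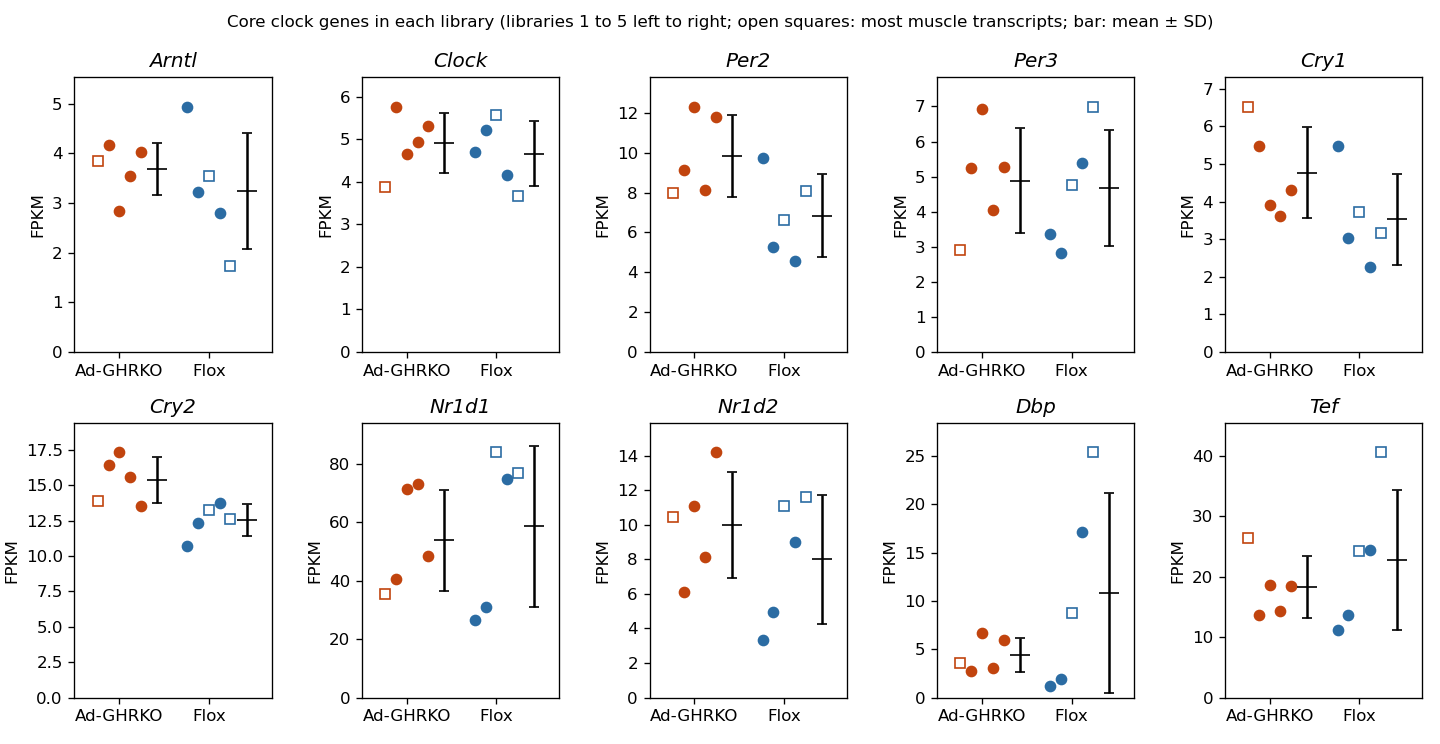
Level in FPKM (vertical axes, from 0) of each of the 10 core clock genes in the 5 Ad-GHRKO and the 5 Flox libraries, 1 point per library, numbered 1 to 5 from left to right, with mean and SD as a bar beside them and open squares for the 3 libraries with most muscle transcripts. The genotypes overlap in all 10 panels, and Dbp spans 2.77 to 6.67 FPKM in Ad-GHRKO but 1.20 to 25.4 FPKM in Flox.

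Of the REV-ERB genes, Nr1d1 had the highest FPKM, a level per length, of the 10 core genes. Nr1d1 (ENSMUSG00000020889, chromosome 11, 98767932 to 98775333, minus strand), which encodes REV-ERB alpha, was at 35.5, 40.5, 71.2, 73.0 and 48.5 FPKM in Ad-GHRKO, against 26.4, 30.8, 83.9, 74.7 and 76.8 FPKM in Flox. All 5 Ad-GHRKO libraries lay between 2 lower and 3 higher Flox libraries, and the means were 53.8 ± 17.4 FPKM in Ad-GHRKO and 58.5 ± 27.6 FPKM in Flox (SD, n = 5 each). Its log2 change was -0.024 (SE 0.36, 95% interval -0.81 to 0.76, adjusted p = 0.984, limma), and without the 3 muscle-rich libraries it was 0.51 (adjusted p = 0.416, limma). Nr1d1 shares 263 exon bases with Thra on the other strand, and Thra averaged 30.03 ± 7.36 FPKM in Ad-GHRKO and 38.4 ± 5.65 FPKM in Flox (SD, n = 5 each). The sources used here do not say whether counting used strand. Nr1d2 (ENSMUSG00000021775, chromosome 14, 18204054 to 18239127, minus strand), which encodes REV-ERB beta, was at 10.5, 6.14, 11.1, 8.14 and 14.2 FPKM in Ad-GHRKO, against 3.32, 4.93, 11.1, 9.005 and 11.6 FPKM in Flox. Flox 1 and Flox 2 were the lowest, as for Nr1d1, and Ad-GHRKO 5 was the highest. Nr1d2 had a log2 change of 0.36 (95% interval -0.32 to 1.05, adjusted p = 0.628, limma), and 0.72 without the 3 muscle-rich libraries (adjusted p = 0.218, limma).

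Of the 10 core genes, Dbp was the one with the largest spread among the Flox libraries. Dbp (ENSMUSG00000059824, chromosome 7, 45705088 to 45710203, plus strand), a direct target of the activator pair with a deep daily rhythm in mouse tissues, was at 3.61, 2.77, 6.67, 3.02 and 5.97 FPKM in Ad-GHRKO, against 1.20, 1.87, 8.75, 17.1 and 25.4 FPKM in Flox. All 5 Ad-GHRKO libraries lay between Flox 2 and Flox 3, with 2 Flox libraries below every one of them and 3 above. The highest library exceeded the lowest 2.41 times in Ad-GHRKO and 21.2 times in Flox. Counting error was small beside this, since Flox 5 had 1448 Dbp reads (95% exact Poisson interval 24.1 to 26.7 FPKM) and Flox 1 had 57 (0.909 to 1.56 FPKM). The log2 change between genotypes was -0.60 with an SE of 0.63 (95% interval -1.97 to 0.78, adjusted p = 0.701, limma), and 0.14 without the 3 muscle-rich libraries (adjusted p = 0.926, limma). With 1 library left out it ran from -1.05 (without Flox 1) to -0.16 (without Flox 5), and it passed in no case. Dbp shares 539 exon bases with Sphk2 on the other strand. Sphk2 ranged from 8.30 to 11.1 FPKM in Ad-GHRKO and from 9.63 to 11.5 FPKM in Flox.

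Tef (ENSMUSG00000022389, chromosome 15, 81802421 to 81826863, plus strand), the relative of Dbp, was at 26.5, 13.6, 18.6, 14.4 and 18.4 FPKM in Ad-GHRKO, against 11.2, 13.6, 24.2, 24.4 and 40.6 FPKM in Flox. As for Dbp, Flox 5 was highest and Flox 1 lowest, and here Ad-GHRKO 1 came next after Flox 5. The log2 change was -0.20 (95% interval -0.88 to 0.48, adjusted p = 0.803, limma), and it was 0.048 without the 3 muscle-rich libraries (adjusted p = 0.927, limma). The 2 libraries highest in Tef, Flox 5 and Ad-GHRKO 1, were both rich in muscle transcripts. Of the 3 highest in Dbp, Flox 5 (25.4 FPKM) and Flox 3 (8.75 FPKM) were muscle-rich, with 8.63% and 6.04% of reads on the muscle list, and Flox 4 (17.1 FPKM) was not, with 0.00237%. Ad-GHRKO 1, with 15.4%, had 3.61 FPKM of Dbp. The part of muscle transcripts in the Tef and Dbp values was not tested. Arntl and Tef share 33 and 193 exon bases with the antisense genes Gm45355 and Gm17597. Gm45355 averaged 0.142 FPKM in Ad-GHRKO and 0.114 FPKM in Flox, and Gm17597 averaged 0.207 FPKM in Ad-GHRKO and 0.312 FPKM in Flox. Per3 overlaps Camta1, and Clock the pseudogene Ube2n-ps1, without a shared exon base.

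**Figure D2:**
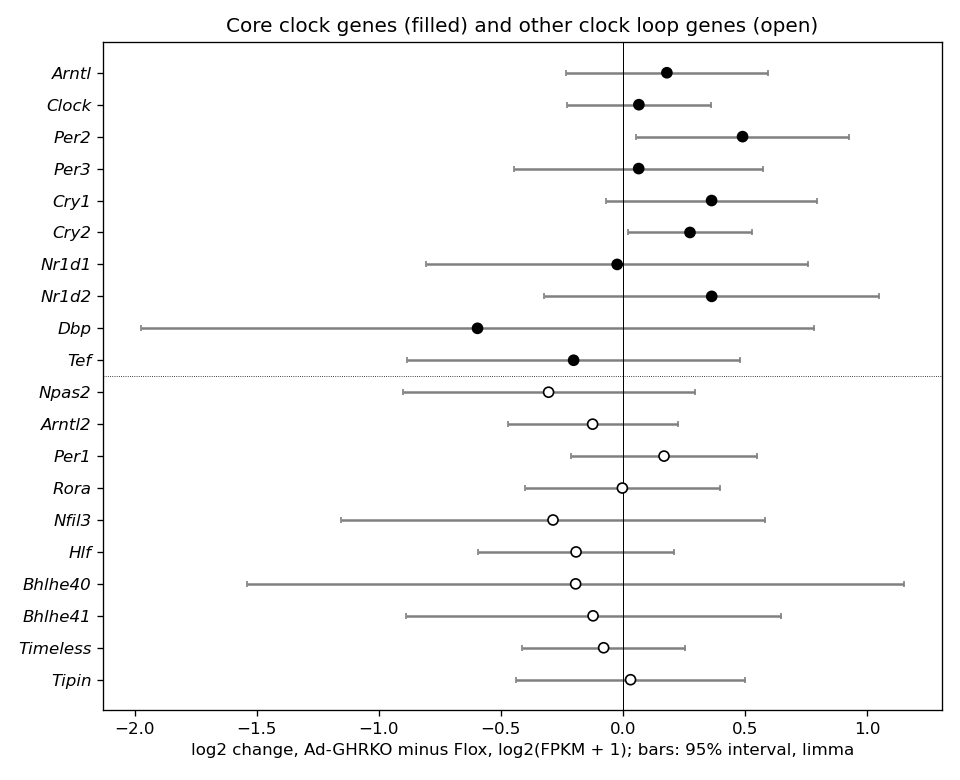
Log2 change, Ad-GHRKO minus Flox, on the log2(FPKM + 1) scale (horizontal axis) with 95% intervals from limma, for the 10 core clock genes (filled) and 10 of the 11 tested genes of the other clock loop list (open). The intervals of Per2 and Cry2 lie just above 0 before adjustment, all others cross 0, and Dbp and Bhlhe40 have the widest.

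Genes of opposite phase were then set against each other within each library, which cancels most differences in library scaling. The mean log2(FPKM + 1) of Arntl, Clock, Npas2 and Nfil3 minus that of Dbp, Tef, Per3, Nr1d1 and Nr1d2 was -0.85, -0.93, -1.92, -1.20 and -1.61 in Ad-GHRKO 1 to 5. In Flox 1 to 5 it was 0.12, -0.50, -1.54, -1.92 and -2.63. The 5 Ad-GHRKO libraries thus sat inside the range of Flox, and Flox 1 and Flox 5 marked its 2 ends. The means were -1.30 ± 0.46 in Ad-GHRKO and -1.29 ± 1.10 in Flox (SD, n = 5 each), a difference of -0.0078, or -0.65 without the 3 muscle-rich libraries. The ratio of Arntl to Dbp in FPKM had the same 2 ends, but the order between them differed. It was 1.06, 1.51, 0.425, 1.18 and 0.675 in Ad-GHRKO, against 4.12, 1.72, 0.404, 0.164 and 0.0684 in Flox. Flox 1 and Flox 2 lay above every Ad-GHRKO library in this ratio, and Flox 3, Flox 4 and Flox 5 lay below them all. On the log2(FPKM + 1) scale, Arntl minus Dbp averaged -0.15 ± 0.58 in Ad-GHRKO and -0.93 ± 1.94 in Flox (SD, n = 5 each). The genotype difference was 0.78 for this pair alone. An SD of single libraries does not measure the uncertainty of a difference between means. Libraries therefore differed from each other in the balance of the 2 arms of the clock, mostly within Flox. The genotype differences in that balance were smaller in size than the SD of single Flox libraries, and were not tested. Members of an arm did not all move together between genotypes. Early genes had log2 changes of 0.18 (Arntl), 0.065 (Clock), -0.31 (Npas2) and -0.29 (Nfil3), and late genes from -0.60 (Dbp) to 0.36 (Nr1d2). Nfil3 entered the score of Ad-GHRKO 1 at 34.0 FPKM, against at most 7.86 FPKM in the other Ad-GHRKO libraries. Differences between samples in hour of collection, in clock state and in tissue make-up, such as muscle RNA, cannot be told apart here. No collection time is given, and the part of muscle transcripts in this balance was not tested.

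**Figure D3:**
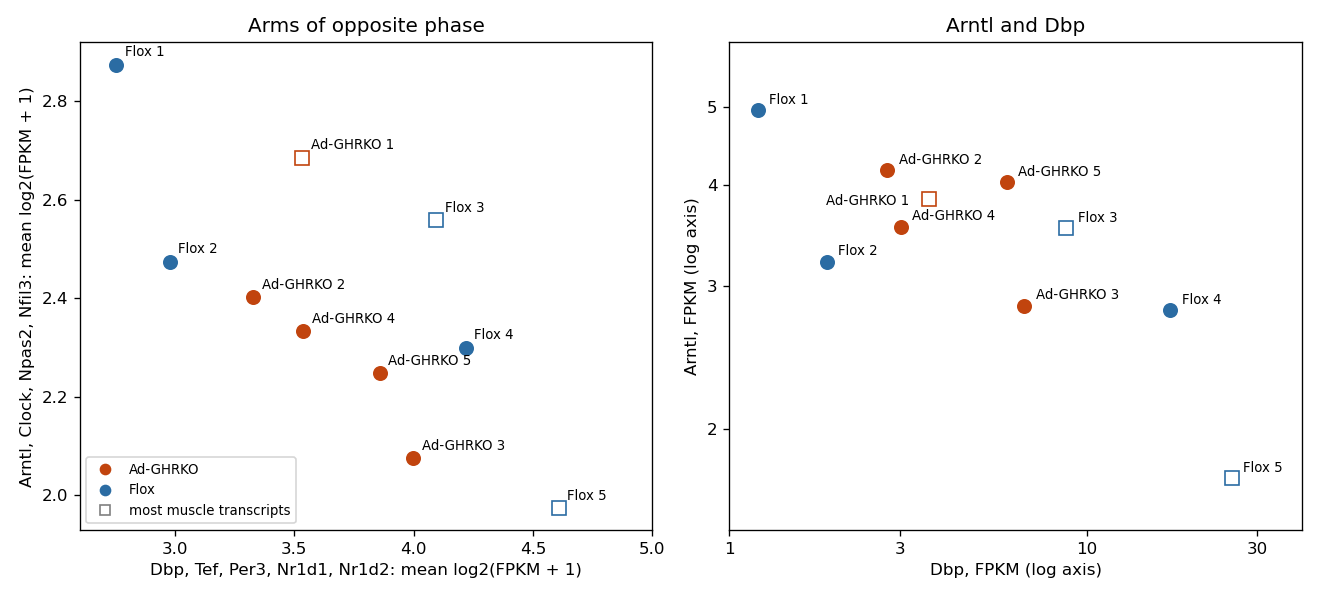
Left, mean log2(FPKM + 1) of Arntl, Clock, Npas2 and Nfil3 (vertical) against that of Dbp, Tef, Per3, Nr1d1 and Nr1d2 (horizontal); right, Arntl against Dbp in FPKM on log axes; 1 point per library, with open squares for the 3 libraries with most muscle transcripts. Flox 1, with 4.94 FPKM of Arntl and 1.20 of Dbp, and Flox 5, with 1.74 and 25.4, lie at opposite corners, and the 5 Ad-GHRKO libraries lie between them.

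Across the 10 libraries, Arntl was lower where Dbp was higher. Of 7 relations of Arntl computed, that with Dbp had a Pearson r of -0.81 (permutation p = 0.00315, adjusted over the 7 relations 0.0220) and a Spearman rho of -0.75 (permutation p = 0.0171, adjusted 0.105), n = 10. With Tef the Pearson r was -0.75 (permutation p = 0.0122, adjusted 0.0428) and rho was -0.62 (permutation p = 0.0599, adjusted 0.105). The other late genes also had negative r without passing adjustment, at -0.63 for Nr1d1 (adjusted permutation p = 0.0876), -0.58 for Per3 (0.101) and -0.47 for Nr1d2 (0.203). Ciart, a gene of the other loop list, had r of -0.63 (adjusted permutation p = 0.0876). Per2, which peaks later than Dbp, had r of 0.26 (adjusted permutation p = 0.468). Their rank correlations with Arntl were -0.64 for Nr1d1, -0.66 for Ciart, -0.52 for Per3, -0.41 for Nr1d2 and 0.44 for Per2, at permutation p of 0.0551, 0.0435, 0.134, 0.247 and 0.207.

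Without Flox 1 and Flox 5, the libraries farthest from the median of Arntl, r was -0.50 for Dbp (exact permutation p = 0.207, n = 8) and -0.20 for Tef (exact permutation p = 0.621, n = 8). Neither relation passed without these 2 libraries. Leaving out the ends of the range of Arntl by itself brings r closer to 0, so this refit cannot show whether the relations rest on them. Taken as deviations from the genotype means, r was -0.80 for Dbp and -0.74 for Tef, close to the pooled values. Without the 3 muscle-rich libraries, r was -0.69 for Dbp (exact permutation p = 0.0861, n = 7) and -0.73 for Tef (exact permutation p = 0.0647, n = 7). Leaving out Ad-GHRKO 2, Flox 1, Flox 4 or Flox 5 alone took the adjusted p of Dbp past 0.05 (0.0530, 0.108, 0.0826 and 0.242, exact permutation, n = 9). For Tef the same held for Ad-GHRKO 2, Ad-GHRKO 4, Ad-GHRKO 5, Flox 1, Flox 4 and Flox 5 (0.0949, 0.0603, 0.0538, 0.157, 0.0891 and 0.344, exact permutation, n = 9). Ciart passed without Ad-GHRKO 1 (r = -0.89, adjusted p = 0.0155) and Nr1d1 without Flox 2 (r = -0.73, adjusted p = 0.0460, exact permutation, n = 9 each). With median ratio scaling of the libraries, r was -0.68 for Dbp and -0.33 for Tef, and neither passed (adjusted permutation p = 0.109 and 0.521).

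The 5 late genes were positively correlated with each other across libraries. Their 10 pairs had r from 0.46 to 0.87 over the 10 libraries, and from 0.67 to 0.99 over the 7 libraries without much muscle RNA. These are descriptions over libraries that share the same scaling. Dbp followed Tef most closely (r = 0.87) and Nr1d1 next (r = 0.79), and Nr1d2 was close to Tef (r = 0.72) and Dbp (r = 0.70). Arntl had r of 0.66 with Cry1 and 0.57 with Clock. Of all 45 pairs of the 10 core genes, 25 had a positive r.

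The core genes varied more within Flox than within Ad-GHRKO. The SD of log2(FPKM + 1) within a genotype was larger in Flox for 9 of the 10 core genes (90.0%), all but Cry2, against 4637 of 12785 genes tested (36.3%). The SD of Dbp was 0.47 in Ad-GHRKO and 1.59 in Flox, where it exceeded that of 99.3% of genes tested. That of Nr1d1 was 0.46 in Ad-GHRKO and 0.79 in Flox, and that of Tef was 0.36 in Ad-GHRKO and 0.71 in Flox. Nr1d2 had an SD of 0.42 in Ad-GHRKO and 0.68 in Flox. Arntl, steady in Ad-GHRKO, had an SD of 0.17 there and 0.41 in Flox. The median SD of the 10 genes was 0.33 in Ad-GHRKO and 0.42 in Flox, while over all genes tested it was 0.30 in Ad-GHRKO and 0.24 in Flox. These are counts and medians of correlated members, and no test was made of them. Flox 1 held the lowest value for 5 of the 10 genes (Cry2, Nr1d1, Nr1d2, Dbp and Tef), Flox 5 held the highest for 3 (Per3, Dbp and Tef), and no Ad-GHRKO library held the lowest value of any.

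**Figure D4:**
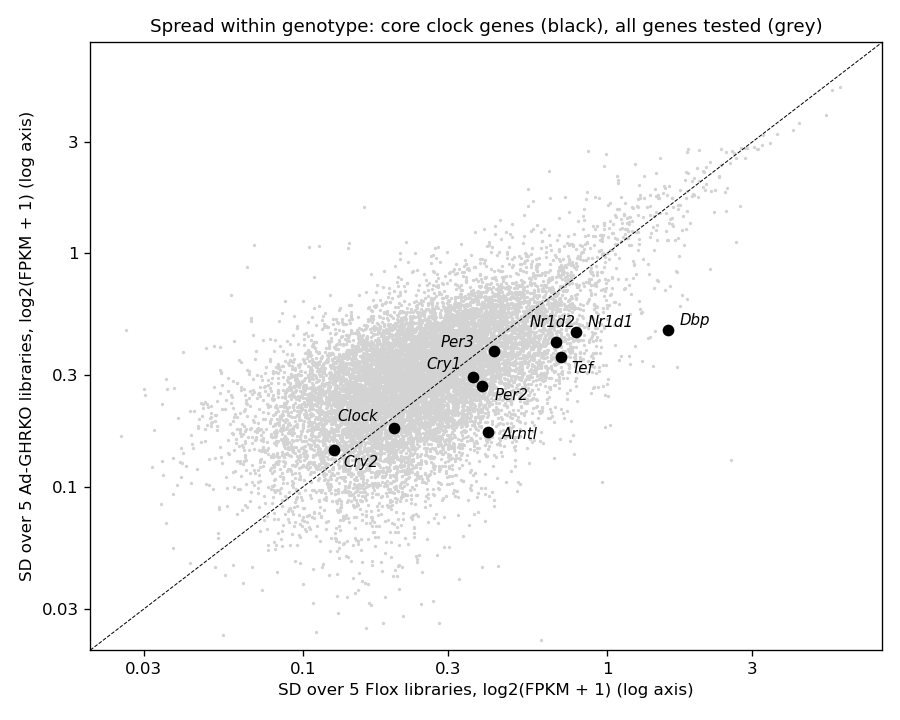
SD of log2(FPKM + 1) over the 5 Ad-GHRKO libraries (vertical) against that over the 5 Flox libraries (horizontal), log axes, for the 10 core clock genes (black) and all 12785 genes tested (grey), with the line of equal SD. Of the core genes, 9 lie on the Flox side of the line, and Dbp, with SDs of 0.47 in Ad-GHRKO and 1.59 in Flox, lies farthest from it.

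Other genes of the clock loop likewise showed no change between genotypes that passed the test. Of 13 listed, 11 passed the filter on low values and 0 were called. By limma, 0 had an unadjusted p below 0.05, against 2091 of 12785 genes tested. Voom on the recovered reads gave the same 2 counts for the list. The median log2 change of these 11 was -0.12. Npas2, which can replace Clock as partner of ARNTL, was at 1.07, 1.697, 1.40, 1.69 and 1.01 FPKM in Ad-GHRKO, against 4.29, 2.46, 1.96, 1.56 and 0.515 FPKM in Flox. Its highest and lowest libraries were Flox 1 and Flox 5, the same as for Arntl. Ciart, a repressor of the activator pair that fell below the filter, was at 2.78, 0.392, 1.03, 0.666 and 0.908 FPKM in Ad-GHRKO, against 0.418, 0.471, 0.831, 1.56 and 2.97 FPKM in Flox. Nfil3, the D-box repressor that opposes Dbp, was at 34.0, 7.28, 5.05, 7.86 and 6.99 FPKM in Ad-GHRKO, against 15.2, 9.54, 12.7, 10.7 and 11.3 FPKM in Flox. All Flox libraries lay above 4 of the Ad-GHRKO libraries and below Ad-GHRKO 1, the library with most muscle transcripts. The log2 change of Nfil3 was -0.29 (adjusted p = 0.778, limma), and without Ad-GHRKO 1 it was -0.72 (adjusted p = 0.0211, limma), the lowest of a range of 0.0211 to 0.954 over its alternatives. Without that library 1185 of 12785 genes tested were called.

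Per1, the third period gene and itself an inducible one, ranged from 20.02 to 40.04 FPKM in Ad-GHRKO and from 20.7 to 25.6 FPKM in Flox (log2 change 0.17, adjusted p = 0.698, limma). The E-box repressor Bhlhe40 (DEC1) was at 17.4, 3.15, 4.68, 4.14 and 12.5 FPKM in Ad-GHRKO, against 2.76, 2.001, 18.0, 17.1 and 14.3 FPKM in Flox. It was low in Flox 1 and Flox 2 and high in the other 3 Flox libraries, the same split as Nr1d1. Its relative Bhlhe41 ranged from 1.05 to 4.46 FPKM in Ad-GHRKO and from 0.863 to 4.15 FPKM in Flox. The ROR receptors activate Arntl through the motif that REV-ERB binds. Rora ranged from 2.81 to 5.34 FPKM in Ad-GHRKO and from 2.36 to 4.60 FPKM in Flox. Rorb, below the filter, reached 0.159 FPKM in Ad-GHRKO and 0.263 FPKM in Flox at most. Hlf, the third D-box activator, ranged from 1.45 to 2.10 FPKM in Ad-GHRKO and from 1.45 to 3.94 FPKM in Flox, highest in Flox 5 as Dbp and Tef were. Arntl2, Timeless and Tipin had means of 1.10, 1.88 and 6.70 FPKM in Ad-GHRKO, against 1.28, 2.06 and 6.38 FPKM in Flox.

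Genes that modify clock proteins, such as kinases, ubiquitin ligases and deacetylases, numbered 18. Of these 17 were tested, 0 were called and 2 had an unadjusted p below 0.05 by limma, against 2091 of 12785 genes tested. Voom gave the same 2 counts for the list, and the median log2 change of the list was 0.054. Csnk2b, the regulatory subunit of casein kinase 2, was at 31.7, 27.8, 27.1, 27.4 and 28.6 FPKM in Ad-GHRKO, against 34.3, 34.8, 32.4, 35.9 and 38.9 FPKM in Flox. Its groups did not overlap, as was the case for 4.97% of all genes tested, and its log2 change was -0.30 (95% interval -0.53 to -0.064, adjusted p = 0.188, limma). Csnk2b passed with array weights (log2 change -0.33, adjusted p = 0.0157, limma), the lowest of a range of 0.0157 to 0.395 over its alternatives. In that fit 1695 of 12785 genes tested were called.

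Of 16 rhythmic output genes, 15 were tested and 0 were called, while 7 had an unadjusted p below 0.05 by limma and by voom. Their median log2 change was 0.47, against 0.036 over all genes tested. Over all genes tested, 2091 of 12785 had an unadjusted p below 0.05 by limma and 2048 of 12782 by voom. Wee1, a cell cycle kinase under E-box control, was at 3.52, 4.54, 5.53, 4.33 and 6.96 FPKM in Ad-GHRKO, against 3.95, 2.26, 1.37, 2.08 and 2.10 FPKM in Flox. Flox 1 overlapped the lowest Ad-GHRKO library, and the other 4 Flox libraries lay below all of Ad-GHRKO. The log2 change was 0.85 (SE 0.21, 95% interval 0.40 to 1.30) with an adjusted p of 0.0584 by limma, in a range of 0.0142 to 0.186 over its alternatives. Wee1 passed with median ratio scaling (adjusted p = 0.0255), quantile normalization (0.0437), TPM rescaling (0.0383), the muscle score as a covariate (0.0307) and array weights (0.0142), and without Ad-GHRKO 1 (0.0224) or Flox 1 (0.0240), all by limma. In these fits 193 to 1695 of 12785 genes tested were called. Pdk4, a kinase that limits glucose oxidation and is induced by fasting and glucocorticoids, was at 168, 96.9, 82.7, 162 and 79.0 FPKM in Ad-GHRKO, against 116, 38.7, 45.8, 19.9 and 37.2 FPKM in Flox. Flox 1 again stood with Ad-GHRKO, above 3 of its libraries. The log2 change was 1.34 (SE 0.40, 95% interval 0.46 to 2.22, adjusted p = 0.123, limma), and without Flox 1 it was 1.69 (adjusted p = 0.0243, limma), within a range of 0.0243 to 0.263.

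Across the 10 libraries, 9788 genes were compared with Arntl and with Dbp by Pearson r on log2(FPKM + 1). The 5 closest to Arntl were Cd83 (r = 0.86), Rnps1 (0.85), Psmd10 (0.85), Ercc5 (0.84) and Irs2 (0.83). Irs2, an insulin receptor substrate, averaged 18.8 ± 7.78 FPKM in Ad-GHRKO and 12.7 ± 8.17 FPKM in Flox (SD, n = 5 each), and was lowest in Flox 5 at 4.05 FPKM. Of the 5 closest to Dbp, 4 are given here: Tef (r = 0.87), Mapk6 (0.83), Tfdp1 (0.81) and Traf3ip2 (0.80). Mapk6, an atypical mitogen-activated protein kinase, was at 5.54, 8.27, 7.88, 7.30 and 10.8 FPKM in Ad-GHRKO, against 6.07, 8.56, 10.96, 17.3 and 13.6 FPKM in Flox. Flox 3, Flox 4 and Flox 5 lay above all 5 Ad-GHRKO libraries. Of these correlated genes, Tef alone is in the clock lists, and with so few libraries a high r describes these libraries alone.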

How the data were processed

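Polyadenylated RNA from 10 inguinal white adipose tissue samples was sequenced. The authors deposited 1 table of FPKM values with 1 column per library, per the file headers. The sources used here name no aligner or counting tool and do not say whether strand was used. The submitters' processing notes name GRCm39, but 31109 of 31253 gene identifiers shared with GENCODE release M21 (99.54%) have its GRCm38 coordinates, so loci are given as GRCm38. FPKM times exon length came out as whole reads (tolerance 0.01) for 99.43% to 99.49% of values, with 14.6 to 19.3 M reads per library (M, mega). That sets the counting error at low levels, and the exact Poisson intervals cover counting error only. FPKM is relative to a library's total, so abundant muscle transcripts lower other values.

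The 12785 genes that reached 1 FPKM in 5 or more libraries entered a two-sided limma fit (version 3.58.1, R 4.3.3) of log2(FPKM + 1). The prior variance followed mean expression, and p-values were adjusted by Benjamini-Hochberg at a threshold of 0.05. Such log2 changes understate those of low genes. The fit was checked on simulated data. Correlations of Arntl used numpy 2.4.6, with 100000 permutations or, below 10 libraries, all of them. The Poisson intervals used scipy 1.17.1. The genes named are all members, the other clock loop list, the 2 genes with the smallest p in each further list where none passed, the 5 genes most like Arntl and like Dbp by r (mean of at least 2 FPKM), Ghr, and genes overlapping a member. Genes that meet this rule but are not named are not reported here, and stay in the list counts. Members and lists were chosen with earlier results of these data known. Alternatives were other pseudocounts, filters, scalings, a replicate block, a muscle covariate, array weights and leaving out libraries. Leaving out the 3 muscle-rich libraries, voom on recovered reads, leave-one-out correlations and alternatives for the likeness were added after seeing the data.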

Additional observations from a re-analysis of the deposited data

Results flagged for a closer look

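Within each genotype, 1 library lay far from the other 4 in 3 of the 52 groups examined, by a test on the gap between the extreme value and its nearest neighbour that picks about 1 group in 20 by chance. In Ad-GHRKO 1, Nfil3 was at 34.0 FPKM (next highest 7.86) and Ciart at 2.78 FPKM (next 1.03). Ad-GHRKO 1 is also the library with 15.4% of its reads on muscle genes, and the part of these transcripts in these values was not tested. In Flox 1, Pdk4 was at 116 FPKM (next highest 45.8). That library had the highest Arntl and the lowest Dbp, and 0.00802% of its reads on muscle genes. None of the 10 core genes had such a library in either genotype.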

How the results depend on the processing

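The number of genes called, 280, was 117 with no filter, 531 with median ratio scaling, 451 with quantile normalization, 85 with the replicate block, 798 with the muscle covariate, 1695 with array weights, 777 without the 3 muscle-rich libraries and 116 to 1185 when 1 library was left out. TPM rescaling moved the median log2 change of all genes to 0.15 and gave 141 genes higher and 93 lower, against 99 and 181. Calls among the 10 core genes stayed at 0, except 1 (Cry2) with array weights. Other loop genes called ranged from 0 to 1 with 1 library left out. Protein modifiers called were 2 with array weights and 0 to 1 with 1 library left out. Output genes called were 1 with median ratio scaling, quantile normalization, TPM rescaling, the muscle covariate or without the 3 libraries, 5 with array weights, and 0 to 2 with 1 library left out. Immediate-early genes called, 6 of 12, were 3 of 14 with no filter, 3 without the 3 libraries, 10 with the muscle covariate, 4 with the replicate block and 4 to 8 with 1 library left out, all higher in Ad-GHRKO. The causes were not tested. Same-numbered libraries did not pair (correlation of deviations -0.49 to 0.39, 2 of 5 over 0.1, and 2 libraries closest to their own number), so the block is no design feature.

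Some directions of genes that were not called changed. The log2 change of Nr1d1 was 0.0039 with quantile normalization, 0.10 with TPM rescaling, 0.26 with array weights and 0.51 without the 3 libraries. Without those 3, Dbp was at 0.14, Tef 0.048, Rora 0.060, Hlf 0.0028 and Bhlhe40 0.11. Among genes that kept their direction without those 3, Npas2 was at -0.57 (against -0.31 with all libraries) and Per1 at 0.00024 (against 0.17). Rora was at 0.11 with TPM rescaling and 0.030 with the muscle covariate, and Timeless at 0.0030 with TPM rescaling. Tipin was at -0.0036 with median ratio scaling, -0.018 with quantile normalization and -0.012 with the covariate. With 1 library left out, log2 changes ran from -0.27 to 0.14 for Nr1d1, -0.41 to 0.033 for Tef, -0.13 to 0.076 for Rora, -0.59 to 0.075 for Bhlhe40, -0.049 to 0.22 for Tipin, -0.36 to 0.058 for Bhlhe41, -0.0025 to 0.13 for Clock and -0.065 to 0.20 for Per3. They kept their sign from -1.05 to -0.16 for Dbp, 0.13 to 0.51 for Nr1d2, 0.032 to 0.31 for Arntl and -0.54 to -0.090 for Npas2. The r of Arntl was -0.68 with Dbp and -0.33 with Tef under median ratio scaling, and -0.69 and -0.73 without the 3 libraries. With 1 library left out it ran from -0.89 to -0.66 for Dbp, -0.84 to -0.48 for Tef, -0.89 to -0.32 for Ciart and -0.73 to -0.49 for Nr1d1. The opposite-phase difference between genotypes ran from -0.34 to 0.35 with 1 library left out. It was 0.78 for Arntl minus Dbp alone, against -0.0078 for the full set of genes.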
